A study of Mus musculus with 6 samples.

Results

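Oxidative phosphorylation is the mitochondrial process in which electrons from nutrients pass along 4 protein complexes of the inner membrane to oxygen, and complex V uses the resulting proton gradient to make ATP. Complex I takes electrons from NADH, complex II from succinate, complex III passes them to cytochrome c, and complex IV hands them to oxygen. Most subunits are encoded in the nucleus and a few in mitochondrial DNA. In white fat, mitochondria supply ATP and intermediates for lipid synthesis, and PPARG, the nuclear receptor of adipocyte differentiation, is known to promote mitochondrial gene expression there.

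The nuclear genes of these subunits were followed in white adipose tissue of the epididymal pad, taken from male mice 10 weeks old on a mixed C57BL6;129Sv background. Of the 6 mice, 3 carried a single ldi allele of Pparg, which the labels tie to lipodystrophy (Pparg ldi/+), and 3 were litter-matched wild types. RNA of each mouse went to its own Affymetrix MOE430v2.0 array, so groups have n = 3, which limits the precision. What the ldi allele alters could not be read from the labels, and it was carried by the whole animal, not by adipocytes alone. Members were all genes whose platform symbol names a subunit of complex I (Nduf a, b, c, s or v followed by a number), II (Sdha to Sdhd), III (Uqcr), IV (Cox4 to Cox8) or V (Atp5), plus Cyc1 of complex III and Cycs, which is cytochrome c. Cox7a1 was left out by the rule. This gave 82 of 18193 genes on the array, each read by its brightest probe set, and 79 of 11201 genes bright enough to be tested. Complex I had 35 members, complex II 4, complex III 9, complex IV 16, complex V 17, and cytochrome c was the last. Too dim to be tested were Ndufb4, Cox7c and Cox7b2, whose mean log2 value lay below 7.46, the median of all probe sets. Probe sets annotated to several genes were not used, so for Ndufb4 and Cox7c these values describe dim probe sets and not the level of the genes.

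The tissue label was checked on 11 adipocyte markers. Adipoq, the adiponectin gene, averaged a scaled signal of 26686 in wild-type mice and 12010 with the ldi allele, and no marker was listed at 0. Of these 11 genes 10 fell, and their signals summed to 168281 to 188514 per wild-type array and to 96624 to 105536 per Pparg ldi/+ array. Pparg itself fell, from 4605 to 1781 (log2 -1.35, limma adjusted p = 1.04e-05). Macrophage markers moved the other way: 14 of 14 rose, with sums of 43606 to 56904 and 113858 to 116065. The sum of 17 epididymal markers ran from 1671 to 4402 among wild-type arrays and from 11335 to 44483 among Pparg ldi/+ arrays. Of the 10 tested 5 rose, and Lcn8, Lcn9, Cst12 and Teddm2 reached high values on arrays 1 and 2 of the Pparg ldi/+ mice but not on array 3. On array 3 Lcn2, which inflamed tissues also express, made up 10158 of the sum. Without Lcn2 the sums were 1375 to 1984 in wild type and 24163, 32697 and 1177 in Pparg ldi/+ arrays 1, 2 and 3. The part of these cell types in the results below was not tested. In bulk tissue, fewer cells of a type and less RNA per cell cannot be told apart.

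Promoter sequences of subunit genes are shown first, because nuclear subunit genes are known as targets of the factors NRF1, GABP and YY1 and of the ERR receptors. RefSeq windows of build GRCm38.p6, read here as the 250 bases before the annotated start, matched 66 of the 82 genes by gene number. The 2 windows below without a match belong to the member with the largest fall, Ndufb3, and that with the largest rise past the threshold, Uqcr10. The other two belong to genes that did not pass the threshold and hold matches to the NRF1 and GABP letters, marked in capitals.
Ndufb3 (complex I), chr1:58586147-58586396, plus strand: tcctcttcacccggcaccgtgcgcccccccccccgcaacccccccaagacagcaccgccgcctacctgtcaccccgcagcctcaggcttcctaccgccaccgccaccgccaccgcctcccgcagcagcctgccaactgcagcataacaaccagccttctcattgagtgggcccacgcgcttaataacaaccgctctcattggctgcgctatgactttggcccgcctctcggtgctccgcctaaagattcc
Uqcr10 (complex III), chr11:4704345-4704594, minus strand: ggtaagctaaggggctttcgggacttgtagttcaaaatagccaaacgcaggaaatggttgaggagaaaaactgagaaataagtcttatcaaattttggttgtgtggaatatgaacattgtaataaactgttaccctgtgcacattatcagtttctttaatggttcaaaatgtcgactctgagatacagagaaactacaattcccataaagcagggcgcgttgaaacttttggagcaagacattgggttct
Cox6a1 (complex IV), chr5:115348959-115349208, minus strand: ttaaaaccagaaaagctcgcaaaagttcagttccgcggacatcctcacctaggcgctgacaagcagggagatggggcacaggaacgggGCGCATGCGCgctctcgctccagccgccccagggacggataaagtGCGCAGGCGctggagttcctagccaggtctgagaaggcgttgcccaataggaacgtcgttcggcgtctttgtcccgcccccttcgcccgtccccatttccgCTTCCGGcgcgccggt
Sdhd (complex II), chr9:50603850-50604099, minus strand: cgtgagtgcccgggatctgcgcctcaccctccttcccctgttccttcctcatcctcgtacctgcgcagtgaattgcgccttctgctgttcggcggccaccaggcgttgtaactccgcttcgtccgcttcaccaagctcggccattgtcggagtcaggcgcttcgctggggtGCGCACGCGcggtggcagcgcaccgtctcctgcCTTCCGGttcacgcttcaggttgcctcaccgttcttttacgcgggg

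The letters searched on both strands were GCGCANGCG for NRF1, CCGGAAG for GABP, AAGATGGC for YY1, AAGGTCA for ERR, GGGCGG for SP1 and, for PPAR, AGGTCA repeated in the same direction with 1 base between. That repeat holds the ERR letters when the base between is A. The NRF1 letters were in 13 of 66 subunit genes (19.7%) and in 5.86% of the 27025 genes with a window. The GABP letters were in 12 of 66 (18.2%) against 7.83%, the ERR letters in 5 (7.58%) against 4.70%, and the YY1 letters in 1 (1.52%) against 1.83%. The SP1 letters were in 25 (37.9%) against 35.4%. The PPAR letters were in 0 of 66 and in 0.0407% of all genes. At least 1 of the first 4 was in 34.8% of subunit genes and 18.3% of all genes. Among members called lower 3 of 8 held any of the 4, among those called higher 0 of 4, and among those not called 19 of 51 (37.3%). A gene counted when any of its windows held the letters, and a match describes letters, not a bound site.

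Subunit genes differed little between the genotypes. In the fat of Pparg ldi/+ mice 8 of 79 tested members fell and 4 rose, together 15.2% (limma, adjusted p under 0.05 over all tested genes). In the whole comparison 32.7% of genes passed, 16.3% higher and 16.4% lower. The median log2 difference of the members was -0.03, with quartiles of -0.12 and 0.09, where all tested genes had -0.0043, -0.25 and 0.25. The median size without sign was 0.10 for the members and 0.25 for all tested genes. No member reached a log2 difference of 1 in either direction (0 of 79), while 961 tested genes (8.58%) did. Cox7a1, a complex IV subunit gene left out by the rule, was among those genes, at 1.65 (limma adjusted p = 0.000992). A difference of at least 0.5 was found for 4 members (5.06%), Ndufb3, Ndufb1, Cox4i2 and Cox6a2, and for 24.7% of tested genes.

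**Figure D1:**
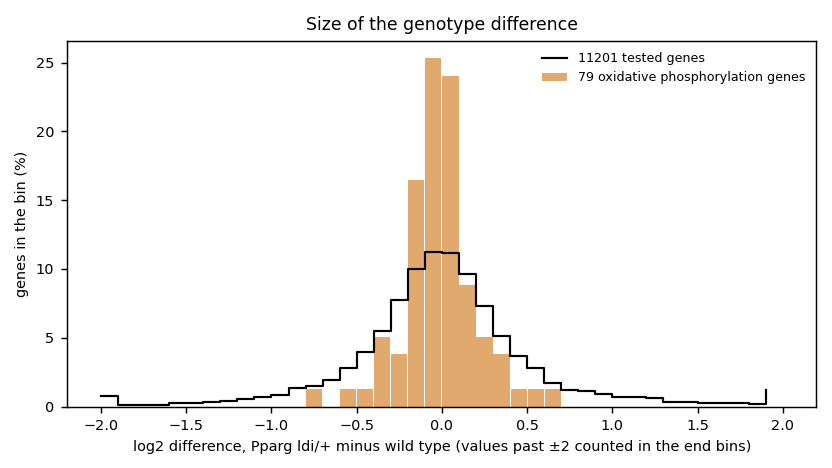
Histogram of the log2 difference (Pparg ldi/+ minus wild type) on the x axis and the percentage of genes in each bin of 0.1 on the y axis, for the 79 tested subunit genes (bars) and the 11201 tested genes (line). The bars lie close to 0, between -0.76 and 0.63, and the line reaches past 1 on both sides, with values past ±2 counted in the end bins.

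The median SE of a member's difference was 0.07, against 0.13 for all tested genes. For 63 of the 79 members the 95% confidence interval lay wholly between -0.5 and 0.5, as it did for 4464 of 11201 tested genes. Members were bright: their mean log2 values ran from 7.65 to 14.3. Among the 445 other tested genes at or above the members' median log2 value of 12.5, 53.3% passed the threshold and 26.5% differed by at least 0.5. In 66.5% of these 445 the groups did not overlap. The groups did not overlap in 32 of 79 members (40.5%), where 47.6% of all tested genes did not, so more members had groups apart than passed the test. Of these 32, 18 were lower and 14 higher in Pparg ldi/+.

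Over the 79 members, the median log2 deviation from a gene's mean over the 6 arrays was 0.03, 0.05 and -0.03 in wild-type arrays 1, 2 and 3, and 0.01, 0.01 and -0.05 in Pparg ldi/+ arrays 1, 2 and 3. Wild-type array 2 was the highest of the 6 for 23 members, and wild-type array 3 was the lowest for 23. Pparg ldi/+ array 3 was the lowest for 20. Neither genotype had all 3 arrays on one side of 0.

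**Figure D2:**
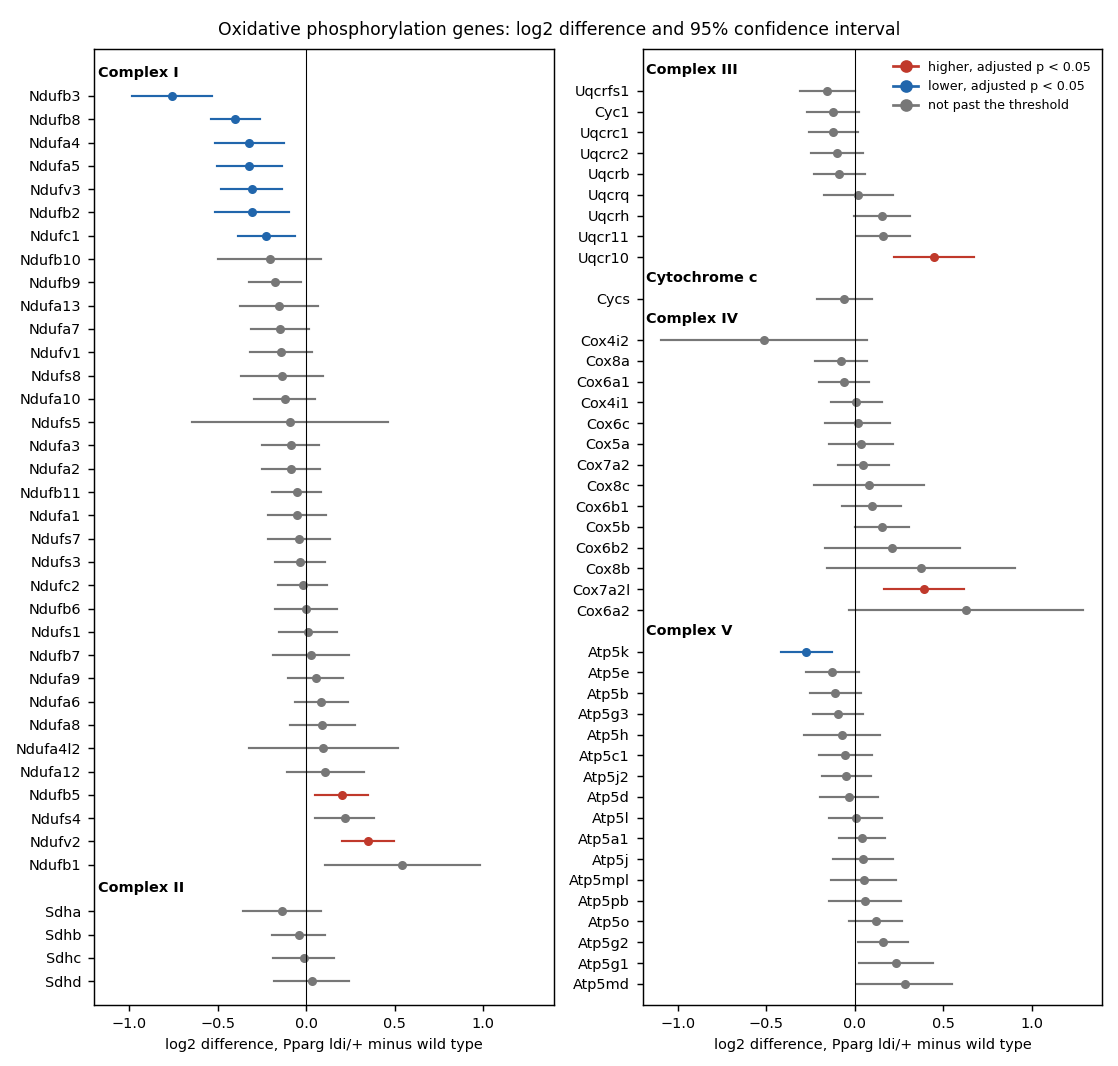
Log2 difference (x axis, Pparg ldi/+ minus wild type) with its 95% confidence interval for each of the 79 tested genes, grouped by complex. Genes past the adjusted p threshold are blue (8 lower) or red (4 higher), and 67 are grey.

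Complex I held 9 of the 12 genes past the threshold and 34 of the 79 tested members. Of these 34, 7 fell and 2 rose (26.5%, against 32.7% of all tested genes), and the median log2 difference was -0.07. Groups did not overlap in 15 of the 34 (44.1%), against 47.6% of all tested genes. The complex has a matrix arm that oxidises NADH, a quinone site, and a membrane arm that pumps protons. Its nuclear core subunits carry the flavin and iron-sulphur clusters, and the others are called accessory.

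Ndufb3, an accessory subunit of the membrane arm, had the largest fall. Its scaled signal was 6725, 6672 and 5436 in the wild-type arrays and 3824, 3810 and 3415 in the Pparg ldi/+ arrays. Every Pparg ldi/+ array lay far below every wild-type array. The means were 6278 ± 729 and 3683 ± 232 (SD, n = 3), 1.69-fold lower, with a log2 difference of -0.76 (SE 0.10, 95% confidence interval -0.98 to -0.53, limma adjusted p = 0.000542). Its log2 difference was between -0.87 and -0.70 in the 18 alternatives, and the call held in each with more than 1 array in each group.

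Ndufb8, likewise of the membrane arm, was at 7850, 7845 and 7955 in wild type and at 5903, 6109 and 5887 in Pparg ldi/+. Both groups were tight and wide apart, 1.32-fold (log2 -0.40, SE 0.06, limma adjusted p = 0.00117). A dim second probe set of Ndufb8 differed by 0.04, and the mean of the 2 sets, at -0.18, did not pass. Ndufb2, another membrane-arm subunit, was at 6183, 7155 and 5796 in wild type and at 5207, 4820 and 5387 in Pparg ldi/+. Its groups were close but apart (log2 -0.31, SE 0.09, limma adjusted p = 0.032). Its other probe sets were at -0.20 and 0.15, both with overlapping groups, and the mean of its sets, x_at left out, was -0.076. The call ended in 11 of 18 alternatives.

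Ndufc1, a small membrane-arm subunit, was at 6213, 6015 and 5514 in wild type and at 5101, 4943 and 5093 in Pparg ldi/+, a log2 difference of -0.23 (SE 0.07, limma adjusted p = 0.0374). Its other probe set differed by -0.28. The difference was between -0.28 and -0.17 in the 18 alternatives, and did not pass the threshold in 10. Ndufb9 and Ndufb10, of the same arm, had log2 differences of -0.18 and -0.21 that did not pass (limma adjusted p = 0.0676 and 0.257).

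In the matrix arm, Ndufa5, an accessory subunit near the quinone site, was at 2678, 2409 and 2822 in wild type and at 2108, 2069 and 2122 in Pparg ldi/+. The Pparg ldi/+ arrays were nearly equal and all lower (log2 -0.32, SE 0.08, limma adjusted p = 0.0162), and its second probe set differed by -0.27. The call on Ndufa5 ended in 5 alternatives, among them those without Pparg ldi/+ array 1 or 2 (limma adjusted p = 0.0543 and 0.0509). Ndufv3, an accessory subunit of the NADH-oxidising part, was at 8980, 8124 and 8087 in wild type and at 6589, 7242 and 6480 in Pparg ldi/+. The fall was 1.24-fold (log2 -0.31, SE 0.08, limma adjusted p = 0.0132), and the call ended in 4 alternatives.

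Ndufa4 carries a complex I name, but its protein is known as a subunit of complex IV. Its signal was 10914, 9084 and 8925 in wild type and 7786, 7599 and 7617 in Pparg ldi/+, with wild-type array 1 above its fellows. It fell 1.25-fold (log2 -0.32, SE 0.09, limma adjusted p = 0.0193), and the call ended in 6 alternatives. With Ndufa4 alone moved to complex IV, complex I has 6 of 33 tested members lower and complex IV 1 of 15. Of all tested genes 16.4% were lower. The paralog Ndufa4l2, which is induced by hypoxia and stayed under complex I by its name, was at 569, 738 and 679 and at 599, 961 and 610. These groups overlapped (log2 0.10, 95% confidence interval -0.33 to 0.52).

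The 2 complex I genes that rose were Ndufv2 and Ndufb5. Ndufv2 is a core subunit that carries an iron-sulphur cluster beside the NADH site. It was at 5459, 5837 and 5550 in wild type and at 7283, 7206 and 6992 in Pparg ldi/+, with a clear gap between the groups. It rose 1.27-fold (log2 0.35, SE 0.06, 95% confidence interval 0.20 to 0.49, limma adjusted p = 0.00315), and its other 2 probe sets differed by 0.31 and 0.26. The membrane-arm gene Ndufb5 was at 4738, 5056 and 4660 and at 5476, 5537 and 5590. That is a rise of 1.15-fold (log2 0.20, limma adjusted p = 0.0456), and its second probe set differed by 0.08. The difference of Ndufb5 was between 0.14 and 0.25 in the 18 alternatives, and did not pass in 11.

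Ndufv2 and Ndufv3, which lie in the same part of the enzyme, thus went opposite ways. Ndufv1, which also lies in that part and binds NADH, did not pass at -0.14 (95% confidence interval -0.32 to 0.04). Of 6 core subunits tested, Ndufv2 was the member that passed, and the others, Ndufv1, Ndufs1, Ndufs3, Ndufs7 and Ndufs8, lay between -0.14 and 0.01. Of 28 accessory subunits tested by name, 7 fell and 1 rose (28.6%), or 6 of 27 and 1 without Ndufa4 (25.9%). Of all tested genes 32.7% passed. Ndufb1 had the largest positive difference of complex I, 0.54, but a wide interval of 0.10 to 0.98 on a dim signal of 272 ± 69.4 and 405 ± 58.4 (SD, n = 3, limma adjusted p = 0.0607). Ndufs4, an accessory subunit of the matrix arm, was close to the threshold, at 0.22 (limma adjusted p = 0.0527), and its groups did not overlap. Dimmer probe sets of Ndufs4 differed by 0.40, 0.58 and 0.50, each with groups apart, the last of them below the filter.

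**Figure D3:**
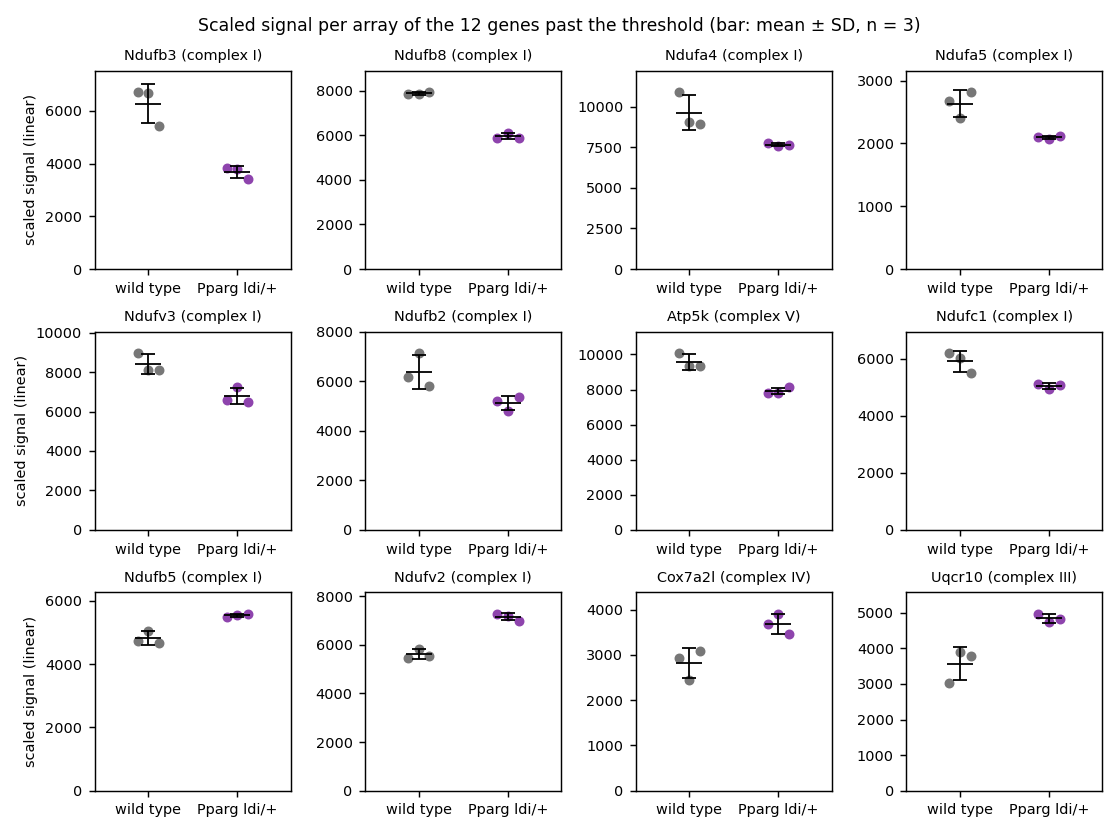
Scaled signal (y axis, linear, from 0) of the 12 genes past the threshold on each of the 3 wild-type (grey) and 3 Pparg ldi/+ (purple) arrays, with mean ± SD as bars. The groups are apart in every panel.

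Complex II, also an enzyme of the citrate cycle, had no gene past the threshold by limma (0 of 4, against 32.7% of all tested genes). At an unadjusted p under 0.05 it had 0 as well. The flavoprotein gene Sdha was at 7631, 6261 and 7949 in wild type and 6837, 6620 and 6291 in Pparg ldi/+ (log2 -0.14, 95% confidence interval -0.36 to 0.08). The iron-sulphur gene Sdhb was at -0.04, and the membrane anchor genes Sdhc and Sdhd were at -0.01 and 0.03. The groups overlapped for all 4. Without wild-type array 2, Sdha was at -0.24 and passed (limma adjusted p = 0.0388).

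In complex III 1 of 9 members (11.1%) rose and 0 fell by limma, where 32.7% of all tested genes passed. At an unadjusted p under 0.05, 0 were lower as well. The groups did not overlap in 7 of 9 (77.8%), where they did not in 47.6% of all tested genes. Among the 445 other tested genes at or above the members' median log2 value, that share was 66.5%. Uqcr10, a small accessory subunit, was at 3033, 3899 and 3774 in wild type and at 4975, 4732 and 4831 in Pparg ldi/+. It rose 1.36-fold, the largest rise of the members past the threshold (log2 0.45, SE 0.10, 95% confidence interval 0.22 to 0.67, limma adjusted p = 0.00914). The dimmer probe sets of Uqcr10 were at 0.16 and -0.0014. The mean of its sets, x_at left out, was 0.22 and did not pass.

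The remaining complex III genes lay on both sides of 0. Uqcrfs1, the Rieske iron-sulphur protein, and Cyc1, cytochrome c1, are the nuclear subunits that carry electrons, and they were at -0.16 and -0.12. Uqcrc1 and Uqcrc2, the large core proteins, were at -0.12 and -0.10. In each of these 4 every Pparg ldi/+ array was below every wild-type array. Uqcrh, the hinge protein beside cytochrome c1, and Uqcr11, a small subunit, were at 0.15 and 0.16, with every Pparg ldi/+ array above every wild-type array. None of these 6 differences passed the threshold (limma adjusted p = 0.0905 to 0.277), and Uqcr11 passed with quantile normalisation, at 0.21. Uqcrb and Uqcrq, at -0.09 and 0.02, overlapped.

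**Figure D4:**
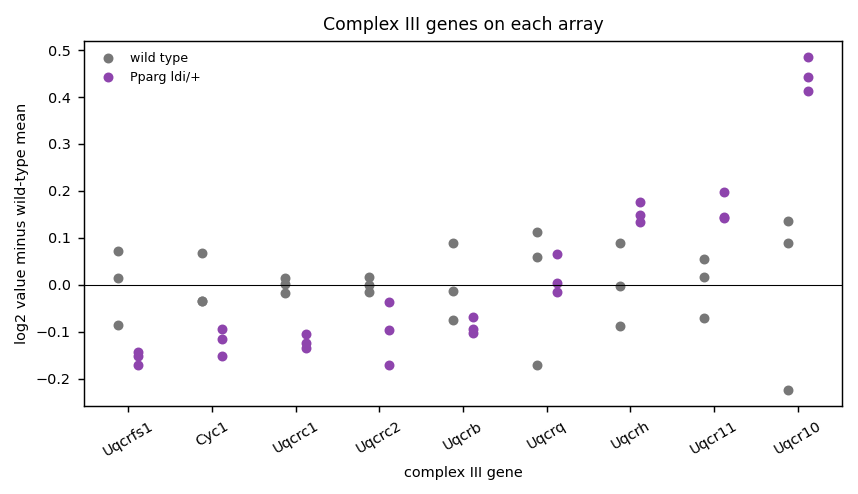
Log2 value minus the gene's wild-type mean (y axis) for the 9 complex III genes (x axis) on each wild-type (grey) and Pparg ldi/+ (purple) array. The 4 genes on the left and the 3 on the right have groups that do not overlap, and Uqcr10 is the gene past the threshold.

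Cycs, the mobile carrier between complexes III and IV, was at 12657, 12994 and 12337 in wild type and 11823, 11567 and 13094 in Pparg ldi/+. The groups overlapped, with a log2 difference of -0.06 (95% confidence interval -0.22 to 0.10).

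In complex IV 1 of 14 tested genes rose and 0 fell by limma, also at an unadjusted p under 0.05, with Ndufa4 counted by its name under complex I. The share called was 7.14%, against 32.7% of all tested genes. The nuclear subunits of this complex surround a core encoded in mitochondrial DNA, and several exist as ubiquitous and tissue-specific forms. The gene that rose was Cox7a2l, whose protein joins complexes III and IV into supercomplexes. It was at 2939, 2441 and 3075 in wild type and at 3686, 3912 and 3472 in Pparg ldi/+. It rose 1.31-fold (log2 0.39, SE 0.10, 95% confidence interval 0.16 to 0.62, limma adjusted p = 0.0168), and its other 2 probe sets differed by 0.32 and 0.25. The call ended in 3 of 18 alternatives, among them those without Pparg ldi/+ array 1 or array 2, at 0.39 and 0.35.

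Values of its paralogs follow. Cox7a2, the ubiquitous form, was at 16992, 16585 and 15535 and at 17498, 16897 and 16340, with overlapping groups (log2 0.05, 95% confidence interval -0.10 to 0.19). Cox7a1, the form of heart, muscle and brown fat, lies outside the rule. It was at 469, 351 and 204 in wild type and at 1084, 1158 and 1018 in Pparg ldi/+, a log2 difference of 1.65 (limma adjusted p = 0.000992). The differences between these genes were not tested against each other. Of 8 brown adipocyte markers tested, which include Cox7a1, 2 rose and 1 fell (37.5%, against 32.7% of all tested genes). Cidea was the gene that fell, from 692 to 386 (log2 -0.76, limma adjusted p = 0.0486), with overlapping groups. Otop1 at -1.02, Dio2 at -0.21, Prdm16 at 0.01, Pank1 at 0.12 and Ppargc1a at 0.14 did not pass. Ucp1, dim on average and not tested, was at 10.5, 56.1 and 6.38 in wild type and 308, 127 and 120 in Pparg ldi/+. All 12 on the array summed to 2097 to 3281 in wild type and 3674 to 4110 in Pparg ldi/+, and without Cox7a1 and Kcnk3, the genes that rose, to 1412 to 2219 and 1390 to 1695. Their part in the result was not tested.

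Other tissue-specific forms did not pass. Cox8b, of muscle and brown fat, was at 1578, 1426 and 765 in wild type and 1438, 1695 and 1572 in Pparg ldi/+ (log2 0.37, 95% confidence interval -0.16 to 0.91). Wild-type array 3, which was also the lowest for Cox7a1, was low for Cox8b, and the remaining arrays overlapped. Cox6a2, the muscle form, was dim at 137 ± 55.4 and 222 ± 49.4 (SD, n = 3), with 0.63 and an interval of -0.03 to 1.29. Cox4i2, the lung and hypoxia form, was at 237 ± 72.6 and 155 ± 42.6 (SD, n = 3), with -0.51 and an interval of -1.10 to 0.07. Muscle marker sums were 3176 to 5271 in wild type and 2525 to 3072 in Pparg ldi/+. Of 6 tested, Pvalb rose and Myl1 fell (33.3%, against 32.7% of all tested genes). Myl1 and Acta1 had the highest signals in these sums. Myl1 was at 1797, 2198 and 1531 in wild type and 549, 543 and 500 in Pparg ldi/+. Acta1 was at 2350, 872 and 703 and at 805, 1424 and 851, and its groups overlapped. The sums were not taken without them. Ckm, muscle creatine kinase, was at 187 and 184.

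The ubiquitous forms lay near 0 with narrow intervals. Cox4i1 was at 0.01 (95% confidence interval -0.13 to 0.15), Cox6a1 at -0.06 (-0.21 to 0.08) and Cox8a at -0.08 (-0.22 to 0.07). Every Pparg ldi/+ array of Cox8a was below every wild-type array. Cox5a was at 0.03, Cox6c at 0.02 and Cox6b1 at 0.09. Cox5b, which binds zinc, was at 0.15 and its groups did not overlap (limma adjusted p = 0.118). Brighter x_at sets of Cox5b, which were not read, were at 0.07 and 0.08 with overlapping groups. A dimmer x_at set was at 0.16 with groups apart. The median of the complex was 0.06.

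Complex V, the ATP synthase, had 17 tested members, of which 1 fell and 0 rose by limma (3 higher at an unadjusted p under 0.05), with a median of 0.0054. The share called was 5.88%, against 32.7% of all tested genes. Atp5k, subunit e, sits in the membrane where synthase dimers meet. It was at 10096, 9343 and 9315 in wild type and at 7793, 7828 and 8121 in Pparg ldi/+. It fell 1.21-fold (log2 -0.27, SE 0.06, 95% confidence interval -0.42 to -0.13, limma adjusted p = 0.011), and its other 2 probe sets differed by -0.34 and -0.31. The call ended in 3 of 18 alternatives, among them that without Pparg ldi/+ array 1, at -0.26. Atp5l, Atp5j2, Atp5mpl and Atp5md, the other small membrane subunits measured, were at 0.0054, -0.05, 0.05 and 0.28, and none of them passed.

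The catalytic F1 head stayed within narrow bounds. Its genes Atp5a1, Atp5b, Atp5c1, Atp5d and Atp5e had log2 differences of 0.04, -0.11, -0.05, -0.03 and -0.13, none of which passed, and each 95% confidence interval lay between -0.5 and 0.5. Groups did not overlap in 3 of these 5, where they did not in 47.6% of all tested genes. Among the 445 other tested genes at or above the members' median log2 value, that share was 66.5%. Atp5b and Atp5e were lower and Atp5a1 was higher. The peripheral stalk genes Atp5pb, Atp5h, Atp5j and Atp5o were at 0.06, -0.07, 0.04 and 0.12. Atp5g1, Atp5g2 and Atp5g3 encode the same mature c-ring protein behind different import sequences. Atp5g1 was at 1438, 1528 and 1720 in wild type and at 1920.5, 1753 and 1838 in Pparg ldi/+, and Atp5g2 at 5524, 5302 and 5589 and at 6076, 6058 and 6209. The groups of both were apart, at 0.23 and 0.16, without passing (limma adjusted p = 0.0848 and 0.0822). Atp5g3 was at -0.10 and its groups overlapped.

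Genes outside the rule that belong to the same machinery were read from lists. ND5, the mitochondrially encoded complex I subunit that the annotation names, was at 24114, 21883 and 23074 in wild type and 21719, 23454 and 21081 in Pparg ldi/+ (log2 -0.06, limma adjusted p = 0.538). Ndufab1, the acyl carrier protein within complex I, fell by 0.36 on the log2 scale (limma adjusted p = 0.00656). Atpif1, the inhibitor that stops complex V from running backwards, rose, from 1531 to 2351 (log2 0.60, limma adjusted p = 0.00112).

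Of 50 assembly factors tested over the complexes, 2 rose and 7 fell (18.0%), where 16.3% and 16.4% of all tested genes did, with a median of -0.07. The shorter lists below are given beside the same background of 32.7% called. For complex I 4 of 16 fell and 1 rose: Acad9 at -0.80 (limma adjusted p = 0.000832), Tmem126b at -0.41, Ecsit at -0.36 and Ndufaf1 at -0.35 fell, and Foxred1 at 0.44 rose. Timmdc1, which like Acad9, Ecsit, Tmem126b and Ndufaf1 is known to act in building the membrane arm, was at 0.20 and did not pass. For complex V, Atpaf2, a chaperone of the F1 head, fell at -0.72 and Tmem242 at -0.46, out of 5. For complex IV, Cmc1 fell at -0.46 among 20, and Coa3 at -0.22 did not pass. For complex II, Sdhaf4 rose at 0.34 among 4, and Sdhaf1 at -0.14 did not pass. Complex III had 0 of 5 by limma, also at an unadjusted p under 0.05. Of these, Ttc19 and Bcs1l had the smallest p, at 0.31 and -0.20 (limma adjusted p = 0.167 and 0.356).

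Of 17 regulators of mitochondrial genes tested, 2 rose and 3 fell (29.4%, against 32.7% of all tested genes). Nrip1, a corepressor of metabolic genes, fell 2.94-fold, from 3912 to 1321 (log2 -1.56, limma adjusted p = 4.22e-05). Nfe2l2 and Pprc1 rose, at 0.40 and 0.35, and Ppard and Yy1 fell, at -0.42 and -0.25. Ppara, a nuclear receptor of fatty acid oxidation, lay below the filter on the mean and was not tested. It was at 264, 246 and 278 in wild type and at 42.8, 86.1 and 83.7 in Pparg ldi/+ (log2 -1.55), and these groups did not overlap. The coactivators Ppargc1a at 0.14 and Ppargc1b at -0.31 did not pass, nor did Nrf1 at 0.05, Gabpa at -0.11, Esrra at 0.19 or Tfam at 0.09. Of 17 markers of mitochondrial mass and import 2 rose and 3 fell (also 29.4%), with a median of -0.05. Mfn2, which fuses mitochondria, fell at -0.95, the citrate synthase gene Cs at -0.27 and the chaperone gene Hspd1 at -0.27. Tomm20 of the outer membrane import pore rose at 0.33 and the channel gene Vdac2 at 0.28.

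The share of calls among subunit genes was below that of all tested genes in each of the 17 alternatives with more than 1 array in a group. The members' share ran from 5.06% to 24.1%, and that of all tested genes from 18.9% to 38.9%. Pparg ldi/+ array 3 alone was also set against the wild-type arrays, because it lacks most epididymal transcripts, a comparison added after seeing the data. The spread there came from the wild-type arrays, and the lone array was assumed to vary like them, so its calls are not counted here. Ndufb3 was at -0.87 in that fit, which is among the 18 alternatives counted for single genes. No member reached 1 in size in any setting. The labels do not say how litters map to arrays, so p-values measure the spread between these mice.

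**Figure D5:**
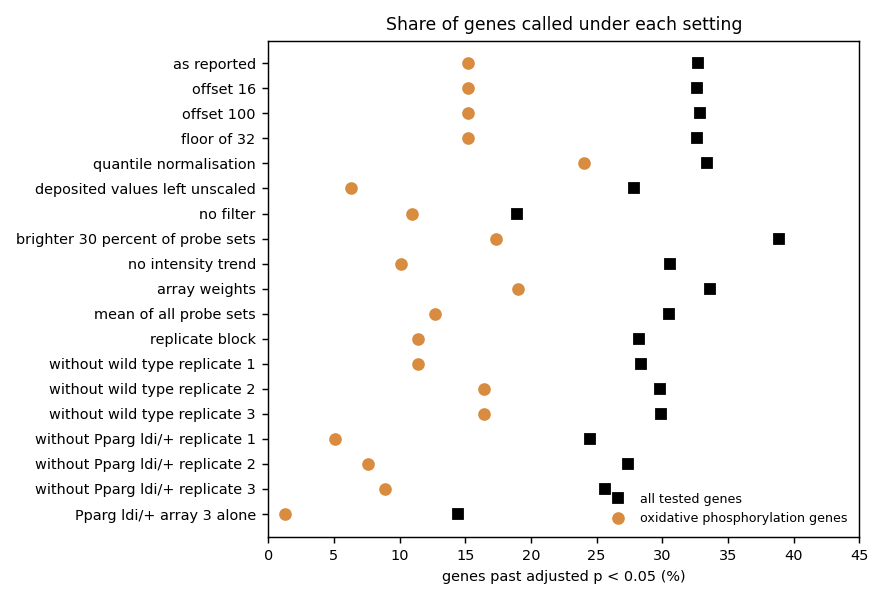
Percentage of genes with a limma adjusted p under 0.05 (x axis) under each processing setting (y axis), for all tested genes (squares) and the subunit genes (circles). The circles lie to the left of the squares in all 19 settings.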

How the data were processed

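The files deposited hold 1 linear intensity for each probe set and array. MAS5 made them, per the submitters' processing notes, which name it for 2 of the 6 samples; its version and scaling target were not stated in what was read. Trimmed means of the deposited intensities were 201 to 236 per array.

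Here arrays were brought to a common trimmed mean of 500 (2% cut from both ends), 32 was added and log2 taken, so differences of dim genes are understated. The arrays hold 45101 probe sets. The 64 controls were used for scaling alone, and 34945 sets had a single gene symbol. A gene was read by its brightest set, with x_at sets used where no other existed. Genes with a mean log2 below 7.46 were not tested. The test was limma 3.58.1 under R 4.3.3 (lmFit, then eBayes with an intensity trend, two-sided, without covariates), with Benjamini-Hochberg adjustment over 11201 genes and a threshold of 0.05. It was tested on simulated data. An exact permutation test of 3 against 3 arrays cannot go below p = 0.1.

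Members and lists were chosen with earlier results of these data known. Named were members past the threshold, the 3 smallest p and the brightest of each complex, tissue-specific isoforms, and in other lists the called genes or the 2 smallest p. Further members, the motifs and the promoters shown were chosen after values were seen. Alternatives changed offset, scaling, filter, variance model, probe set rule or block, or left out arrays.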

Additional observations from a re-analysis of the deposited data

How the results depend on the processing

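Over 33 named members and up to 18 alternatives each, 513 values kept direction and side of the threshold, 58 lost a call, 6 gained one and 15 changed sign. Members called higher and lower, 4 and 8 as reported, became 9 higher with quantile normalisation, 2 lower with unscaled values, 5 lower with no intensity trend, and 0 higher and 1 lower with Pparg ldi/+ array 3 alone, where 730 and 886 of all genes were called. Leaving out 1 array gave 2 to 6 higher and 2 to 9 lower, with 2 and 2 when Pparg ldi/+ array 1 was the one left out, 2 and 4 for array 2, and 3 and 4 for array 3. Unscaled values moved the median of all genes from -0.0043 to 0.044, that of the members to 0.021, and those of complexes I to V to -0.016, 0.025, -0.035, 0.11 and 0.058. The members' median was 0.0090 with the mean of all probe sets. Array 3 alone gave medians of 0.00014 for complex IV and -0.047 for complex V. Leaving out 1 array gave medians of -0.11 to -0.038, -0.056 to -0.0097, -0.099 to -0.045, 0.020 to 0.098 and -0.035 to 0.033 for complexes I to V. The bounds came without wild-type arrays 3 and 1 for complex I, Pparg ldi/+ arrays 2 and 3 for II, Pparg ldi/+ array 2 and wild-type array 1 for III, and wild-type arrays 3 and 2 for IV and V. The sign changes were of differences that passed on neither side. Unscaled values gave 0.0015 for Ndufa1 and 0.011 for Sdhb, quantile normalisation -0.054 for Cox4i1, and the mean of probe sets 0.095 for Cox8a and 0.12 for Cycs. Array 3 alone gave -0.0017 for Cox7a2, -0.10 for Ndufa4l2, -0.055 for Cox4i1 and 0.049 for Cycs. Leaving out 1 array gave -0.042 to 0.12 for Sdhd, -0.12 to 0.21 for Ndufa4l2 and -0.018 to 0.041 for Cox4i1. The cause was not tested. With the title's number as a replicate block, 3 members were higher and 6 lower. The numbers are not known to pair mice: same-numbered arrays correlated at -0.13, -0.086 and -0.095 over genes.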

Other observations

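Ndufs5, an accessory subunit of complex I, varied more within a genotype than between them. Its signal was 4199.5, 4705 and 2513 in wild-type arrays 1, 2 and 3 and 4094, 2584 and 3879 in Pparg ldi/+ arrays 1, 2 and 3, so 1 array of each genotype was low. Its log2 difference was -0.09 with an SE of 0.24, where the median SE of the members was 0.07. The 2 cross-hybridising probe sets of Ndufa12 were high on the same 2 arrays. The dimmer of them was at 3396, 3770 and 5604 in wild type and 3671, 6068 and 3536 in Pparg ldi/+, while the set read for Ndufa12 was at 3998, 4564 and 3901 and at 4984, 4133 and 4334 and did not show it. This was noticed after the values were seen, and the cause was not tested.

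Probe sets of a gene did not always move alike. Of 45 members with more than 1 probe set bright enough, 30 had all of them on the same side of 0, and of the 9 such members past the threshold 6 did.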
